A study of Mus musculus with 18 samples.

Results

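The nuclear-encoded subunits of respiratory complexes III and IV and of the ATP synthase were followed in mouse hearts. They were taken as every probe set, a group of short oligonucleotide probes for 1 transcript, whose single gene symbol on the arrays begins with Uqcr, Cox4 to Cox8 or Atp5, or is Cyc1. This gave 83 of the 45265 probe sets on the arrays and 43 genes: 17 probe sets of 9 complex III genes, 35 of 17 complex IV genes and 31 of 17 ATP synthase genes. Of the 83 probe sets, 75 were bright enough to be tested, and these cover 41 genes. The 8 others are both probe sets of Cox7c, the single probe set of Cox6b2, and 1 of Cox5b, 1 of Cox8a, 1 of Atp5a1 and 2 of Atp5g2, so that Cox7c and Cox6b2 were not tested at all.

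Messenger RNA was measured in heart tissue of male Tet-myrAkt1/αMHC-tTA mice. In these the driver αMHC-tTA, active in heart muscle cells, controls myrAkt1, which encodes a constitutively active Akt1 kinase. All 3 groups of 3 hearts carried both transgenes. The groups are hearts before AAC at 8 weeks of age, hearts 4 weeks after AAC at 12 weeks, and hearts 6 weeks after AAC in which Akt had been switched on, also labelled 12 weeks. AAC is the operation that makes the pressure overload named in the design. The labels of the last group give 3 weeks of Akt activation in the titles and 2 weeks in the descriptions, and 4-week replicate 3 carries the number 1 in its description. No hearts of the older age without AAC and no 6-week hearts with Akt off were analysed here, so that age, time after AAC and Akt cannot be told apart where they change together. Whether several animals were pooled is not stated, and the p-values cover the spread between these samples only.

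Complex III passes electrons from ubiquinol to cytochrome c, complex IV passes them on to oxygen, and both pump protons across the inner mitochondrial membrane. The ATP synthase lets the protons flow back through a rotating ring and makes ATP. Heart muscle is packed with mitochondria and draws most of its ATP from this chain, and it uses heart and muscle isoforms of some complex IV subunits (Cox6a2, Cox7a1, Cox8b) beside isoforms found in most tissues (Cox6a1, Cox7a2, Cox8a).

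Of the 43 genes, 32 had an entry among RefSeq promoter windows (GRCm38.p6), 220 bases before to 30 after the annotated start. Of these, 6 are shown as 250 bases, 5′ to 3′, because they belong to the isoform pairs or to the subunits with the lowest adjusted p-values below. The window of Cox6a1, also of an isoform pair, is not shown.
The window of Cox7a1 is chr7:30183951-30184200 (plus strand), that of Cox7a2 chr9:79759824-79760073 (minus strand), and that of Cox8b chr7:140900417-140900666 (minus strand).
The window of Cox8a is chr19:7217587-7217836 (minus strand), that of Uqcr11 chr10:80406792-80407041 (minus strand), and that of Atp5e chr2:174464072-174464321 (minus strand).
Capitals mark matches, on either strand, to 8 short motifs.
Cox7a1: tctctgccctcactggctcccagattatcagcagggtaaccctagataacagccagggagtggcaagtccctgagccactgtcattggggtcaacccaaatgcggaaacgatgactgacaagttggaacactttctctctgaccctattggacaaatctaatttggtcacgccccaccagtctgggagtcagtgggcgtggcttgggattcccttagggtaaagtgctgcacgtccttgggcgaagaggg
Cox7a2: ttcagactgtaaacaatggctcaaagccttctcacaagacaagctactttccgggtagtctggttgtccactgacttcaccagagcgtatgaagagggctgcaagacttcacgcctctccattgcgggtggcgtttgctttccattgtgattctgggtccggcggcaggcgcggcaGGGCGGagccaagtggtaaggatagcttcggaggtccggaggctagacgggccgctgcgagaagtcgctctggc
Cox8b: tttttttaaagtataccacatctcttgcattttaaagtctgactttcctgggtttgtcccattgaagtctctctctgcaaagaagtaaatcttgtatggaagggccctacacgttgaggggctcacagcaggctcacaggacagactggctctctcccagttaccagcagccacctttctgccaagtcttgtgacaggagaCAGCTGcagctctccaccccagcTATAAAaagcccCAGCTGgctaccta
Cox8a: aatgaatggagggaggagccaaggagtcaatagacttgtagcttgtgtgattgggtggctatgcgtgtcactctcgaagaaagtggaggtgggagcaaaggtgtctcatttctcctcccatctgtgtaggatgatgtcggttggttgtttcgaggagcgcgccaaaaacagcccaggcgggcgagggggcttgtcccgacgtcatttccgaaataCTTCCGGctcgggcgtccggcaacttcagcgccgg
Uqcr11: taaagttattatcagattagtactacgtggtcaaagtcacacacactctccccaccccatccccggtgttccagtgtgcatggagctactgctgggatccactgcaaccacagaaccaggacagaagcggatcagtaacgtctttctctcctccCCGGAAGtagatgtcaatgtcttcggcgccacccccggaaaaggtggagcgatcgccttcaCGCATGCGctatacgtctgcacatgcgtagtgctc
Atp5e: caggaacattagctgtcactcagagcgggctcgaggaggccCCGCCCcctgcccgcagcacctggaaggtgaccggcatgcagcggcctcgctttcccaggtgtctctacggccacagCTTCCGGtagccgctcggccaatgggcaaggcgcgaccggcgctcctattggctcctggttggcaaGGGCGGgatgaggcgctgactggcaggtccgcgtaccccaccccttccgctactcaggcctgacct
The motifs were searched by their letters: GGGCGG (GC box), GCATGCG (core of the nuclear respiratory factor 1 site), CCGGAAG (core of the site of GABP and other Ets factors), AAGATGG (YY1), TATAAA (core of the TATA box), CAGCTG (an E-box of muscle genes), the MEF2 motif and AAGGTCA (half-site of the oestrogen-related receptors). The Ets core was found in 11 of the 32 member genes, 31.4% of their 35 windows, against 8.1% of all 32851 windows of the same length. The respiratory factor core was found in 14.3% of the member windows against 3.24% of all, and the GC box in 34.3% against 33.8%. For YY1 it was 11.4% against 5.04%, and for the receptor half-site 8.57% against 3.89%. The E-box was in 2 member windows (5.71% against 13.7% of all), TATAAA in 3 (8.57% against 11.7%) and MEF2 in 1 (2.86% against 3.04%). Counts this small do not show that these motifs were rarer. In Uqcr11 the respiratory factor core reads the same way on both strands in overlapping matches. Of the 6 windows shown, those of Cox8a, Uqcr11 and Atp5e hold the Ets core, and those of Cox7a1, Cox7a2 and Cox8b do not. That of Cox7a2 holds a GC box and that of Cox7a1 none of the 8 motifs. The Cox6a1 window, not shown, holds GC boxes, the respiratory factor core and the Ets core. The Cox8b window holds 1 E-box that begins 19 bases before the annotated start, and after the start TATAAA, beginning at 5 bases, and a second E-box, beginning at 17 bases. A match is a description of these letters and does not show that a factor binds there.

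The hearts carried these transcripts at high levels: of the 76 probe sets on chip 430A, 39 lay in the top 1% of that chip by mean signal and 60 in the top 10%. The other 7 lie on chip 430B, whose deposited signals have a lower scale. Signals were compared as log2(signal + 32) after the arrays of a chip had been brought to 1 level, and fell, rose or called below means an adjusted p under 0.05 over all 27083 probe sets tested. Akt1 itself, by 1 of its 3 tested probe sets, stood at 8.70 to 9.53 before AAC, 9.24 to 9.89 at 4 weeks and 11.37 to 12.68 with Akt on, a rise of 2.36 over 4 weeks (adjusted p = 0.00312), as its labels say, and the 2 others gave 0.01 and −0.02 without a call. At 4 weeks after AAC 15 of the 75 tested probe sets were called lower and none higher than before AAC, against 1.68% called lower and 2.75% called higher among all tested. With Akt on, 18 of 75 were lower than before AAC and none higher, against 6.51% called lower and 6.86% higher among all. Between the Akt-on and the 4-week hearts no member was called (0 of 75 in limma, 6 at an unadjusted p under 0.05), against 1.46% called lower and 1.08% higher among all.

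The shift was small and shared by many subunits. The median difference at 4 weeks was −0.30 on the log2 scale over the 75 tested members and −0.04 over all tested probe sets. With Akt on it was −0.29 and −0.01 against before AAC, and against 4 weeks −0.03 and 0.02. At 4 weeks all 3 hearts lay below all 3 hearts before AAC for 42 of the 75 members, against 16.2% of all tested probe sets. With Akt on this held for 33 members, against 16.4% of all. Between Akt on and 4 weeks it held for 3 members, against 9.79% of all. In that comparison all Akt-on hearts lay above all 4-week hearts for 7 members, 5 of them among the 17 probe sets of complex III. Over all 27083 probe sets tested this was so for 2915. Bright probe sets more often had all hearts of the later group below all hearts of the earlier one. Against before AAC it held for 220 (4 weeks) and 244 (Akt on) of the 548 other 430A probe sets with a mean signal of at least 5000. Of the 53 members as bright it held for 36 and 26. By complex, the medians at 4 weeks were −0.21 for complex III, −0.34 for complex IV and −0.29 for the ATP synthase. With Akt on against before AAC they were −0.32 for complex IV, −0.38 for the ATP synthase and −0.13 for complex III, and the last turned to 0.07 with quantile scaling and to 0.06 with cyclic loess scaling.

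**Figure D1:**
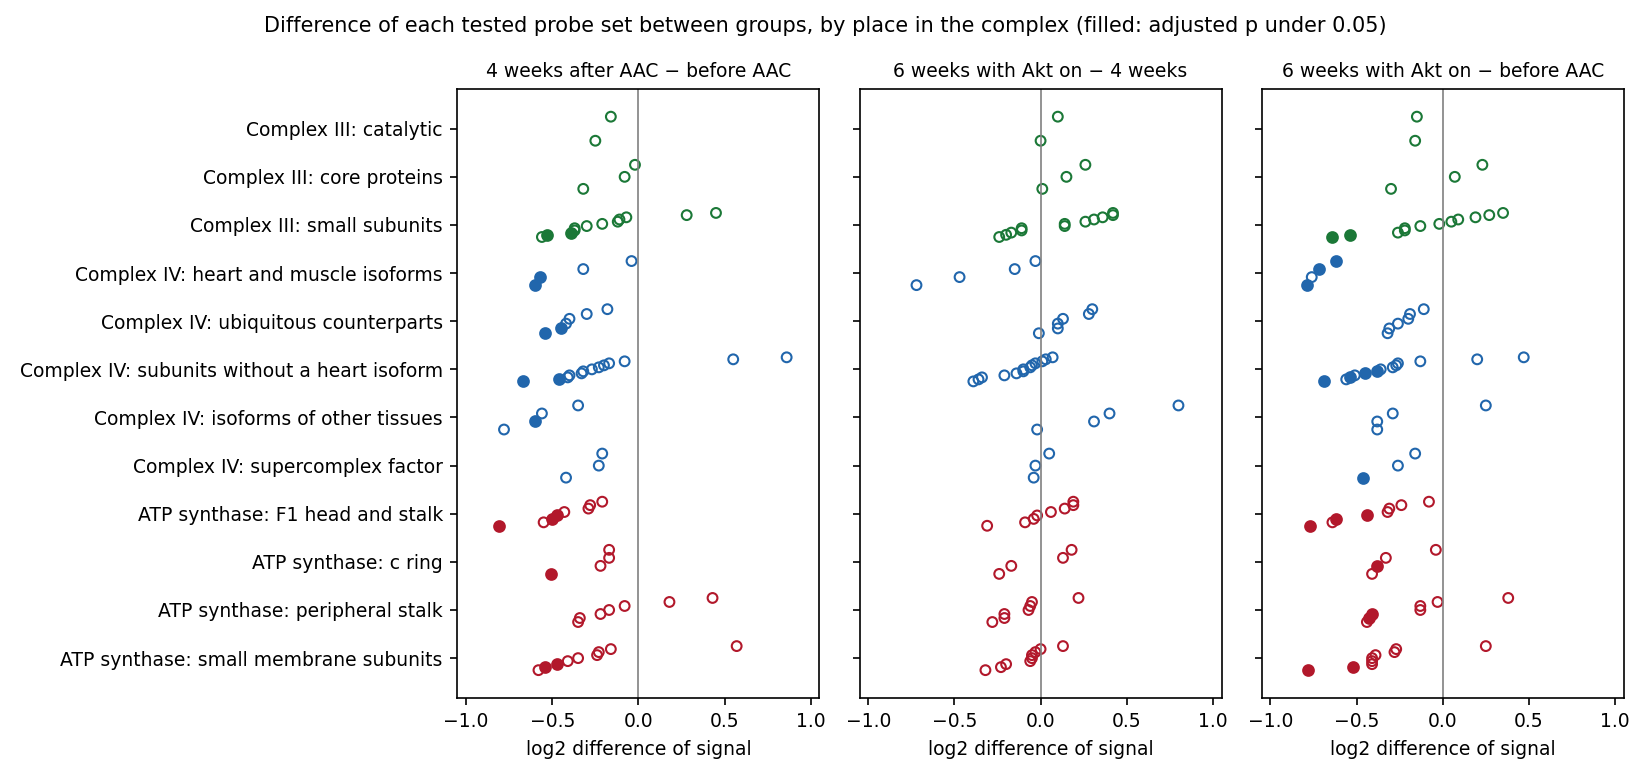
Each point is 1 of the 75 tested probe sets, placed by the role of its subunit (rows) and by its log2 difference of signal between 2 groups (horizontal axis), in 3 panels for the 3 comparisons; filled points passed an adjusted p under 0.05. Filled points lie between −0.81 and −0.39 in the left panel and between −0.79 and −0.38 in the right panel, and the middle panel has none.

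How large this shift is depends on how the arrays are brought to 1 level, and the members are bright. Among the 65 other chip 430A probe sets with a mean log2 signal from 14 to 15, the median difference at 4 weeks was −0.34, and for the 21 members in that range it was −0.40. From 13 to 14 the medians were −0.17 for 221 others and −0.23 for 26 members. With Akt on they were −0.34 for the others and −0.32 for the members from 14 to 15, and −0.23 and −0.35 from 13 to 14. The bright probe sets as a whole were thus lower after AAC under this scaling. The highest signal on the 430A arrays was 39299.5 to 45101 before AAC and lower at 4 weeks, at 30634.6 to 31624.6. With Akt on it was 30290.9 to 40581.2, and replicate 2 lay within the range before AAC. Of the 548 other 430A probe sets with a mean signal of at least 5000, 8.76% were called lower at 4 weeks and 26.5% with Akt on, beside 26.4% and 32.1% of the 53 members as bright. Quantile and cyclic loess scaling, which level such a dependence on signal, brought the members' median at 4 weeks to −0.11 and −0.18, and with Akt on to −0.09 and −0.11. They left 2 and 7 members lower at 4 weeks and 8 and 11 with Akt on. Quantile scaling also called 1 member higher in each comparison, Uqcrh at 4 weeks and Atp5g1 with Akt on.

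**Figure D2:**
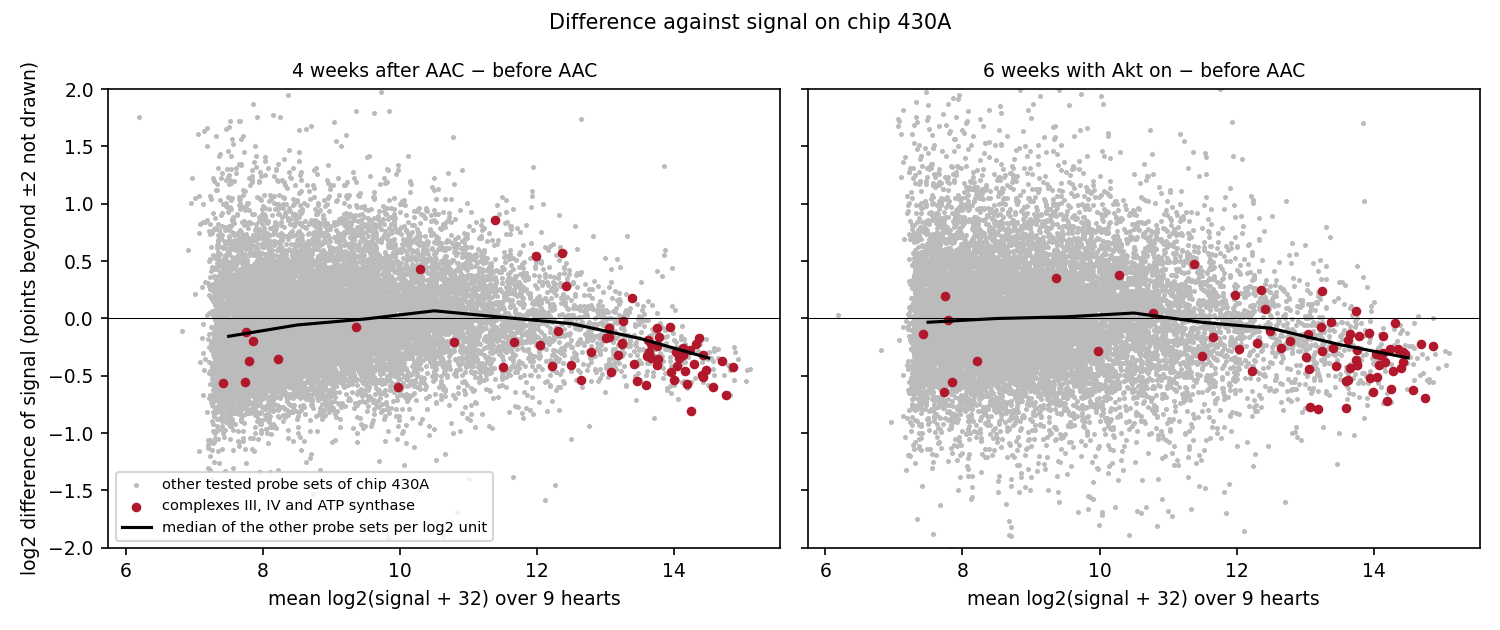
Each point is a tested probe set of chip 430A, with the mean log2(signal + 32) over 9 hearts on the horizontal axis and the log2 difference from the hearts before AAC on the vertical axis (left: 4 weeks, right: Akt on). Members are red, others grey, and the black line is the median of the others per log2 unit, which is at −0.34 in both panels from 14 to 15, the range of 21 members, and at −0.17 (left) and −0.23 (right) from 13 to 14, the range of 26.

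The hearts of a group did not fall equally far. The mean over the 75 members, relative to the hearts before AAC, was 0.03, −0.02 and −0.01 before AAC, −0.35, −0.30 and −0.14 at 4 weeks, and −0.34, −0.16 and −0.30 with Akt on. Under this scaling all 6 hearts after AAC lay below all 3 before, and 4-week replicate 3 and Akt-on replicate 2 lay closest to them. With quantile scaling 4-week replicate 3 stood at 0.01, among the hearts before AAC (−0.02 to 0.02), and the 5 other hearts after AAC at −0.16 to −0.07. Complex III differed least: its means were −0.26, −0.18 and −0.12 at 4 weeks and −0.13, −0.02 and −0.09 with Akt on, and with Akt on they lay above 0 under quantile scaling (0.08, 0.05 and 0.08). Complex IV kept means below the hearts before AAC under all 3 scalings in the Akt-on hearts, from −0.20 to −0.13 under quantile scaling.

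**Figure D3:**
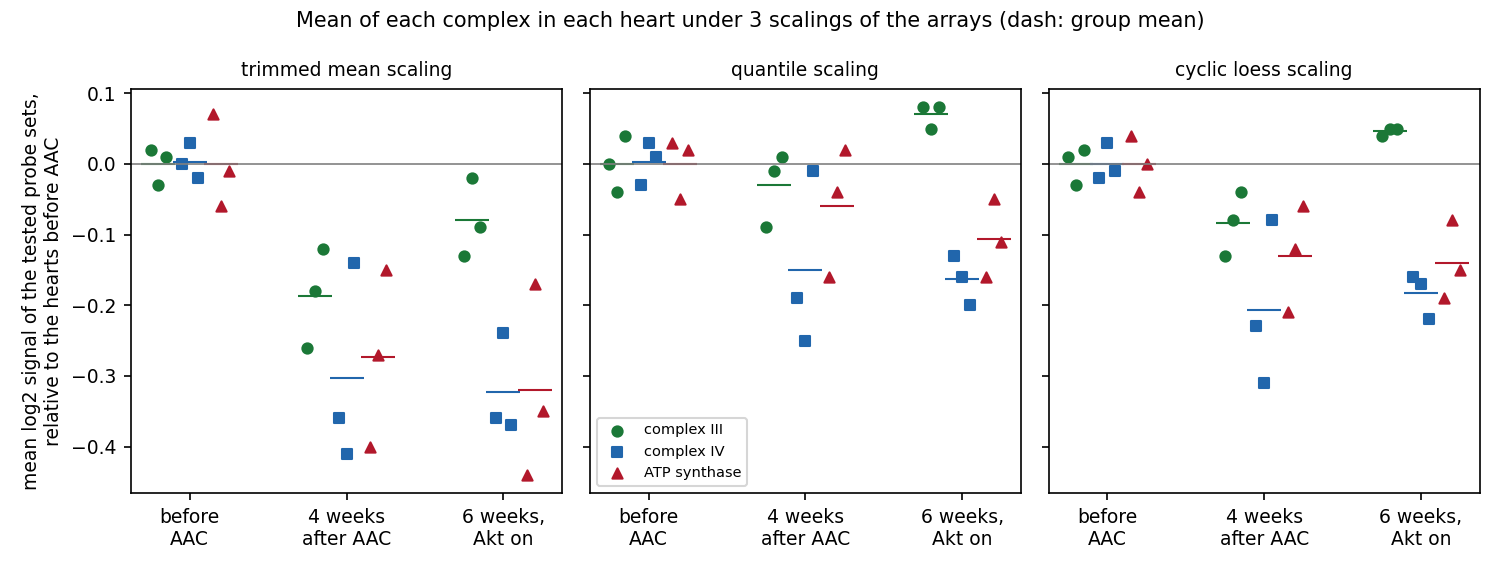
Each point is 1 heart: the mean log2 signal of the tested probe sets of a complex, relative to the hearts before AAC (vertical axis), by group (horizontal axis), under 3 ways of scaling the arrays. Complex IV and the ATP synthase lie below 0 in all Akt-on hearts in each panel, while complex III lies above 0 there with quantile and cyclic loess scaling.

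In complex III the redox subunits and core proteins showed no call. Cyc1, the cytochrome c1 that hands electrons to cytochrome c, gave −0.25 (SE 0.12, adjusted p = 0.259) at 4 weeks and −0.15 with Akt on, and Uqcrfs1, the Rieske iron-sulphur protein, −0.16 in both. The core proteins Uqcrc1 and Uqcrc2 ranged from −0.32 to −0.02 at 4 weeks over 3 probe sets, again without a call. With Akt on against before AAC, Uqcrc1 gave −0.30 and the probe sets of Uqcrc2 0.07 and 0.23, none called. Both calls at 4 weeks were of small subunits, among 12 probe sets tested. Uqcr11, a small subunit of the membrane part, was at 14.45, 14.36 and 14.34 before AAC, 13.75, 13.80 and 14.01 at 4 weeks, and 13.70, 13.73 and 13.80 with Akt on. All hearts after AAC were below all before. It fell by 0.53 at 4 weeks (1.45-fold, SE 0.10, adjusted p = 0.0161) and was 0.64 lower with Akt on (log2 −0.64, 1.56-fold, adjusted p = 0.00233). The first call held in 14 of 23 alternative analyses and the second in 22. Uqcr10, another small subunit, was at 13.74, 13.55 and 13.59 before AAC and at 13.18, 13.25 and 13.26 at 4 weeks by its brightest probe set. These groups do not overlap, and the difference was −0.39 (SE 0.10, adjusted p = 0.0404), kept in 10 of 23 alternatives. With Akt on it stood at 13.36, 13.44 and 13.31, between the other groups, at −0.26 from before AAC without a call. Its dimmer probe sets gave −0.07 and −0.21 at 4 weeks. With Akt on against before AAC they gave 0.35 and 0.05, opposite in sign to the brightest and not called. For the first of them all Akt-on hearts lay above all hearts before AAC.

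Uqcrq, the ubiquinone-binding small subunit, was read by 4 probe sets, of which the bright one stood at 14.00, 13.87 and 13.85 before AAC, 13.57, 13.54 and 13.72 at 4 weeks, and 13.19, 13.49 and 13.42 with Akt on. The 3 groups do not overlap, with the 4-week hearts in the middle. Only the last differed by call from before AAC, at −0.54 (1.45-fold, SE 0.11, adjusted p = 0.00802), while 4 weeks gave −0.30 (adjusted p = 0.133). The 3 other Uqcrq probe sets, with mean signals of 145 to 194, gave −0.13, −0.02 and 0.19 with Akt on, none called. Uqcrh, the hinge protein at cytochrome c1, pointed the other way at 4 weeks: 12.94, 13.16 and 13.09 before AAC and 13.54, 13.53 and 13.47 after (log2 0.45, SE 0.14, adjusted p = 0.0797). Here all 4-week hearts lay above all hearts before AAC, and the call was reached in 3 of 22 alternatives. For Uqcrb, a small subunit at the quinone pocket, the brighter probe set gave −0.37 (adjusted p = 0.0902) at 4 weeks, which became 0.03 with quantile scaling.

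Complex IV had 7 of 30 tested probe sets called lower at 4 weeks and 8 of 30 with Akt on. Cox6c, a small nuclear-encoded subunit with no heart isoform, showed the largest called difference of the complex at 4 weeks. Its bright probe set, with a mean signal of 28300, was at 15.24, 15.25 and 15.12 before AAC, 14.43, 14.57 and 14.61 at 4 weeks, and 14.28, 14.76 and 14.50 with Akt on. It fell by 0.67 at 4 weeks (1.59-fold, SE 0.12, adjusted p = 0.0154) and differed by −0.69 with Akt on (1.62-fold, adjusted p = 0.00391), in both cases with no overlap between the groups. Its other probe set, with a mean signal of 2770, read 10.51, 11.22 and 11.07 before AAC and 11.72, 11.54 and 12.12 at 4 weeks. That is 0.86 higher without a call (SE 0.25, adjusted p = 0.0709), so that the probe sets of Cox6c disagree in direction.

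Cox5a and Cox5b, subunits at the matrix side, carry no heart isoform either. Of the 3 probe sets of Cox5a, the brightest was lower at 4 weeks (−0.46, adjusted p = 0.0389) and with Akt on (−0.38, adjusted p = 0.0386). The 2 others gave −0.08 and 0.55 at 4 weeks and −0.13 and 0.20 with Akt on, none called. The called probe set stood at 14.46, 14.54 and 14.31 before AAC, 13.89, 14.04 and 14.01 at 4 weeks, and 13.90, 14.24 and 14.02 with Akt on, and its calls held in 10 and 11 of 23 alternatives. For Cox5b, 2 of 5 tested probe sets were called with Akt on, at −0.54 (adjusted p = 0.0125) and −0.45 (adjusted p = 0.029), and the 3 others gave −0.56, −0.36 and −0.27. Cox4i1, the large regulatory subunit, was at 14.74, 14.60 and 14.54 before AAC, 14.22, 14.26 and 14.44 at 4 weeks and 14.20, 14.52 and 14.28 with Akt on. Neither difference was called (−0.32, adjusted p = 0.112, and −0.29, adjusted p = 0.0999), though no heart after AAC reached those before. The 2 probe sets of Cox6b1, which faces the intermembrane space, gave −0.41 and −0.27 at 4 weeks and −0.51 and −0.26 with Akt on, none called. Its testis isoform Cox6b2 lay under the filter, at a mean signal of 87.9. Cox7a2l, which joins complexes III and IV into supercomplexes, was called with Akt on by 1 of 3 probe sets (−0.46, adjusted p = 0.0393).

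The heart and muscle isoforms were lower with Akt on in all 3 genes. Cox7a1 was at 13.53, 13.70 and 13.42 before AAC, 12.93, 13.37 and 13.38 at 4 weeks, and 12.80, 12.98 and 12.50 with Akt on. The Akt-on hearts lay clear of those before AAC at −0.79 (1.73-fold, SE 0.15, adjusted p = 0.00737), whereas 4 weeks gave −0.32 (adjusted p = 0.251) and Akt on against 4 weeks −0.47 (adjusted p = 0.142). Cox8b was at 14.65, 14.65 and 14.55 before AAC, 13.84, 14.10 and 14.20 at 4 weeks, and 13.80, 13.98 and 13.91 with Akt on. It was lower in both, by −0.57 (1.49-fold, adjusted p = 0.0184) and −0.72 (1.65-fold, SE 0.11, adjusted p = 0.00227), each time without overlap. Cox6a2 stood at 15.04, 15.05 and 14.84 before AAC, 14.27, 14.44 and 14.42 at 4 weeks, and 14.48, 14.44 and 14.14 with Akt on. Its differences were −0.60 (1.51-fold, adjusted p = 0.0181) and −0.62 (1.54-fold, adjusted p = 0.0049). A second, x-type probe set of Cox6a2 scattered from 11.84 to 13.48 and gave −0.04 and −0.76 without a call. The calls of Cox7a1 and Cox8b with Akt on held in 22 of 23 alternatives and that of Cox6a2 in 21, and the call of Cox8b at 4 weeks held in 14 and that of Cox6a2 in 13.

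Of the ubiquitous counterparts, 2 of 6 tested probe sets were called lower at 4 weeks and none with Akt on. Cox7a2 was at 14.82, 14.67 and 14.66 before AAC, 14.11, 14.34 and 14.36 at 4 weeks, and 14.30, 14.60 and 14.32 with Akt on. It gave −0.45 at 4 weeks (adjusted p = 0.0426, kept in 9 of 23 alternatives) and −0.31 with Akt on (adjusted p = 0.0832). Cox8a by its brighter probe set was at 12.82, 13.01 and 12.90 before AAC, 12.41, 12.14 and 12.56 at 4 weeks, and 12.78, 12.64 and 12.54 with Akt on. It gave −0.54 (adjusted p = 0.0354) and −0.26 (adjusted p = 0.207). Cox6a1 was not called in either (−0.30, adjusted p = 0.262, and −0.20, adjusted p = 0.423, by its brighter probe set), and its groups overlap.

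Whether the isoforms of a pair moved apart was tested within each heart, as the difference between muscle and ubiquitous isoform. The level of such a difference has no meaning across probe sets, only its change between groups. With Cox4i2, the isoform of lung, set beside Cox4i1, 4 pairs gave 12 tests, and an exact two-sided permutation test of 3 hearts against 3 cannot go below p = 0.1. In 5 of the 12 the groups did not overlap, each time lower for the muscle isoform and each at p = 0.1 by the exact permutation test (adjusted p = 0.24), so that none passed. These 5 are not independent, since for Cox7a1 and for Cox8b the same Akt-on hearts were set against both other groups. Cox7a1 minus Cox7a2 was −1.17 ± 0.17 before AAC, −1.04 ± 0.12 at 4 weeks and −1.65 ± 0.16 with Akt on (SD, n = 3; exact permutation), a change of −0.60 from 4 weeks and −0.48 from before AAC. Cox8b minus Cox8a was 1.71 ± 0.11, 1.68 ± 0.26 and 1.24 ± 0.19 in the same order, a change of −0.43 and −0.46. Cox6a2 minus Cox6a1 was 2.03 ± 0.14, 1.73 ± 0.23 and 1.61 ± 0.20, which is −0.43 with Akt on against before AAC. Cox4i2 minus Cox4i1 changed by −0.08 to −0.03 in the 3 comparisons. The isoforms of a pair differ in mean signal. Cox6a2 (24900) and Cox8b (19100) were brighter than Cox6a1 (7060) and Cox8a (6460), while Cox7a1 (9530) was dimmer than Cox7a2 (22800). With Akt on against before AAC, the other 430A probe sets had a median of −0.34 at log2 signals from 14 to 15 and −0.09 from 12 to 13. How much of the pairs' changes follows signal was not tested.

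**Figure D4:**
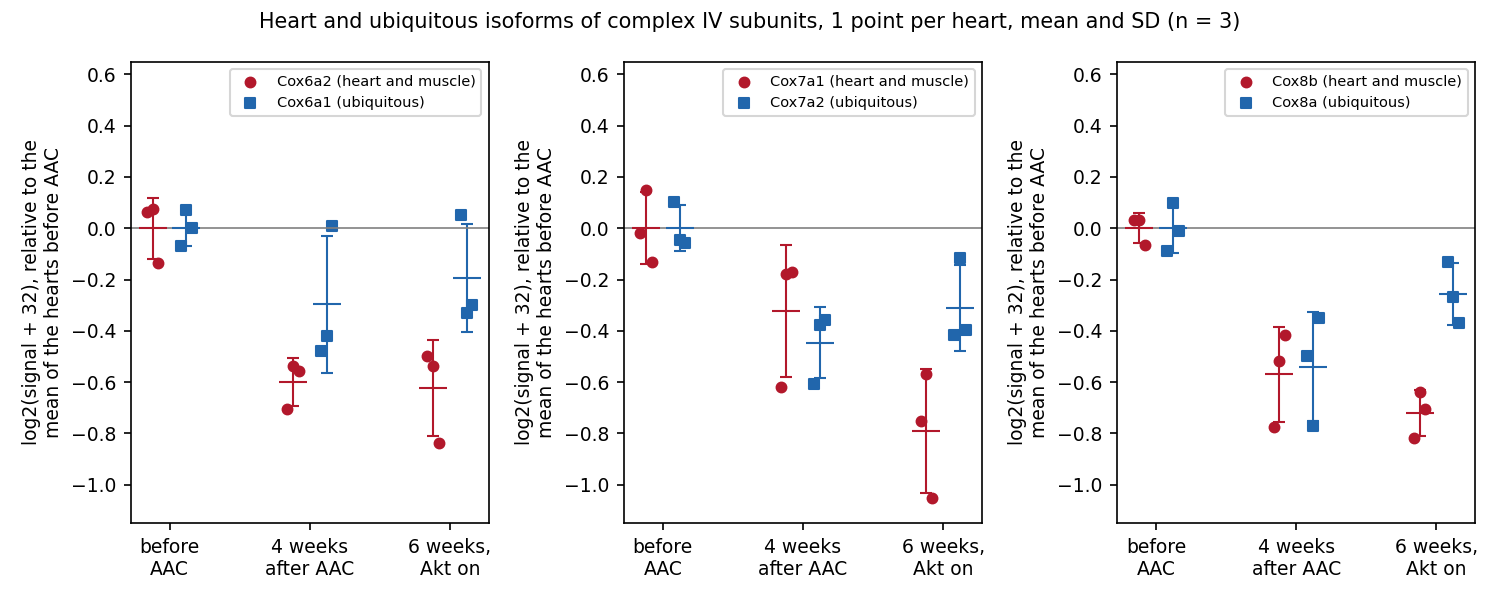
Each point is 1 heart, with log2(signal + 32) relative to the mean of the hearts before AAC on the vertical axis and the group on the horizontal axis, for 3 pairs of complex IV isoforms; dashes and bars are mean and SD (n = 3). In the Akt-on hearts Cox7a1 and Cox8b lie below their ubiquitous partners Cox7a2 and Cox8a, while at 4 weeks the points of each of these pairs share a range.

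Isoforms of other tissues differed in signal. Cox8c, a testis isoform with mean signals of 995 on chip 430A and 348 on chip 430B, was called lower at 4 weeks by 1 of 2 probe sets, at 10.44, 10.26 and 10.11 before AAC and 9.74, 9.52 and 9.76 after (−0.60, adjusted p = 0.0478). Its Akt-on hearts stood at 10.23, 9.79 and 9.92, above those at 4 weeks and overlapping those before AAC. Cox4i2, at a mean signal of 268, gave −0.35 and −0.38 and Cox7b2, at a mean signal of 48.1 on chip 430B, −0.56 and 0.25 in the comparisons with before AAC, none called.

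In the ATP synthase, the F1 head and central stalk held 3 of the 6 calls at 4 weeks and 3 of the 8 with Akt on, among 8 probe sets tested. Atp5d, the delta subunit of the stalk, showed the largest called difference of all members at 4 weeks. By its brighter probe set it was at 14.94, 14.61 and 14.62 before AAC, 13.85, 13.88 and 14.01 at 4 weeks, and 14.04, 14.20 and 14.08 with Akt on. All hearts after AAC lay below those before and the Akt-on hearts above those at 4 weeks. It gave −0.81 at 4 weeks (1.75-fold, SE 0.11, adjusted p = 0.00573) and −0.62 with Akt on (1.53-fold, adjusted p = 0.00465), each called in 22 of 23 alternatives. Its other probe set gave −0.21 and −0.08 without a call, so that the size for this gene rests on 1 probe set. Atp5e, the epsilon subunit beside it, stood at 3 levels without overlap: 13.52, 13.47 and 13.48 before AAC, 12.97, 12.99 and 13.10 at 4 weeks, and 12.68, 12.88 and 12.58 with Akt on. It gave −0.47 at 4 weeks (1.38-fold, adjusted p = 0.0312) and −0.77 with Akt on (1.71-fold, SE 0.10, adjusted p = 0.0015). The step between 4 weeks and Akt on, −0.31, was not called (adjusted p = 0.153). Atp5c1, the gamma subunit that turns inside the head, was at 14.86, 14.63 and 14.65 before AAC, 14.07, 14.28 and 14.30 at 4 weeks, and 14.17, 14.32 and 14.34 with Akt on. It gave −0.50 (adjusted p = 0.0254) and −0.44 (adjusted p = 0.0171). The subunits that form the ring of the head were not called: the brighter probe set of Atp5a1 (alpha) gave −0.43 and −0.24 and Atp5b (beta, the catalytic subunit) −0.28 and −0.32.

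The c ring, which turns with the proton flow, is made of 1 protein encoded by 3 genes. Atp5g3 was at 14.81, 14.71 and 14.64 before AAC, 14.13, 14.20 and 14.29 at 4 weeks, and 14.24, 14.43 and 14.36 with Akt on. It was lower in both, at −0.51 (adjusted p = 0.0166) and −0.38 (adjusted p = 0.02). Atp5g1 gave −0.22 and −0.04 by its bright probe set, and Atp5g2 −0.17 and −0.33, none called. Of the peripheral stalk, which holds the head still, no probe set was called at 4 weeks and 2 of 7 with Akt on. Atp5j (F6) was at 13.87, 13.88 and 13.88 before AAC, 13.46, 13.74 and 13.77 at 4 weeks, and 13.55, 13.41 and 13.38 with Akt on (−0.43, SE 0.11, adjusted p = 0.0197). Atp5o (OSCP, which joins stalk and head) gave −0.41 with Akt on (adjusted p = 0.0233) by its bright probe set, from 14.33, 14.36 and 14.26 before AAC to 13.79, 14.05 and 13.89. Its dimmer one gave 0.38 without a call, with no overlap in the opposite direction. Atp5h and Atp5pb, the d and b subunits, ranged from −0.44 to −0.03 with Akt on over 4 probe sets, none called.

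Among the small membrane subunits 2 of 9 probe sets were called in each comparison with before AAC. Atp5k, the e subunit, was at 14.10, 13.99 and 14.05 before AAC, 13.24, 13.52 and 13.63 at 4 weeks, and 13.01, 13.71 and 13.07 with Akt on by a probe set of type x_at. Akt-on replicate 2 stood well above the other two. This gave −0.58 at 4 weeks (adjusted p = 0.0712) and −0.78 with Akt on (1.72-fold, SE 0.17, adjusted p = 0.0116). A second probe set of Atp5k was called in both (−0.47 and −0.52) and the third in neither (−0.23 and −0.28). Atp5mpl was at 14.01, 13.56 and 13.75 before AAC, 13.09, 13.21 and 13.37 at 4 weeks, and 13.19, 13.58 and 13.31 with Akt on, at −0.54 (adjusted p = 0.0483) and −0.41 (adjusted p = 0.0722). Atp5l (g subunit) gave −0.41 in both and the 3 probe sets of Atp5j2 (f subunit) −0.35 to −0.16 at 4 weeks, none called. Atp5md scattered from 11.59 to 12.62 before AAC and gave 0.57 at 4 weeks without a call.

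Between the Akt-on and 4-week hearts the members differed little, and the missing calls do not show that they were alike, since the median SE of a difference was 0.13. The smallest p in complex III was that of Uqcr10 by its dimmest probe set, at 9.25, 9.27 and 9.06 at 4 weeks and 9.56, 9.58 and 9.71 with Akt on (0.42, adjusted p = 0.127). The groups do not overlap and the Akt-on hearts are higher. Cox7a1 (−0.47, adjusted p = 0.142) and Cox8a (0.28, adjusted p = 0.277, by its brighter probe set) pointed in opposite directions. In the ATP synthase, Atp5e gave −0.31, Atp5j −0.21 (adjusted p = 0.336), Atp5d 0.19 (adjusted p = 0.407) and Atp5g1 0.18 (adjusted p = 0.467). No alternative analysis called a member in this comparison.

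The other genes of the pathway moved in both directions. Of 19 tested complex IV assembly factors, 1 fell at 4 weeks: Cox17, which carries copper to the complex, at −0.80 (SE 0.14, adjusted p = 0.0154). With Akt on against before AAC, Cox17 (−0.67) and Lrpprc (−0.63, adjusted p = 0.0168), which stabilises mitochondrial messenger RNA, were lower, and Coa5 (0.73), Coa7 (0.52), Cox15 (0.64), needed for haem a, and Cox19 (0.74) were higher. The median of that list was 0.23 at 4 weeks and 0.22 with Akt on. Of 6 complex III assembly factors 1 was called, Bcs1l, which inserts the Rieske protein, higher with Akt on (0.62, adjusted p = 0.0147). Of 5 assembly factors and inhibitors of the ATP synthase, Atpaf2 was higher in both (0.98 and 0.91), Tmem70 higher with Akt on (0.76) and Fmc1 lower with Akt on against before AAC (−1.06) and against 4 weeks (−0.63, adjusted p = 0.0464). Complex II, the other entry into the chain, had 1 of 4 subunits called: Sdhb, at −0.60 (adjusted p = 0.0335) and −0.70 (adjusted p = 0.00751). Cytochrome c (Cycs) was not called (0.41 and 0.46). None of 11 nuclear regulators of respiratory genes was called in any comparison. Ppargc1a, the coactivator of mitochondrial biogenesis, gave 0.31 at 4 weeks and −0.87 between Akt on and 4 weeks (SE 0.35, adjusted p = 0.235), and Esrra −0.22 and −0.07.

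Other measures moved with the groups. Gapdh is read by control probe sets at both ends of its transcript, and their ratio, 3′ over 5′, reflects RNA integrity and labelling. On chip 430A it was 1.07 to 1.32 before AAC, 0.828 to 0.888 at 4 weeks and 0.809 to 0.930 with Akt on. That of β-actin was 1.49 to 2.04, 1.14 to 1.21 and 1.04 to 1.22. Both separate the hearts before AAC from the rest, so that this ratio and the group cannot be told apart. With the Gapdh ratio as a covariate no member was called in any comparison, although the members' medians were −0.35 at 4 weeks and −0.31 with Akt on. In that analysis 0 and 6 of all 27083 probe sets were called. The summed signal of 8 heart muscle markers was 191078 to 211159 before AAC, 160423 to 166120 at 4 weeks and 147869 to 181832 with Akt on, with Tnni3 called lower in both and Myh6 with Akt on. All 8 lay above the filter. Their median difference from before AAC was −0.32 at 4 weeks and −0.30 with Akt on, beside −0.30 and −0.29 for the tested members. In bulk RNA, fewer heart muscle cells and less RNA per cell cannot be told apart. Of 6 endothelial markers 1 was lower at 4 weeks (Kdr) and 3 with Akt on (Kdr, Tek and Tie1), and their summed signal was 9468 to 9976 before AAC, 6003 to 7949 at 4 weeks and 6042 to 6324 with Akt on. Of 6 fibroblast markers 2 were higher with Akt on in both comparisons (Col1a2 and Col3a1), with a summed signal of 33802 to 38296, 25245 to 39152 and 35455 to 54469. Of 6 macrophage markers 5 were tested and none called. Of 5 brown fat markers, Ucp1 and Elovl3 lay under the filter, and Cidea was higher and Ppara lower with Akt on than at 4 weeks. Cidea was also called higher with Akt on than before AAC (0.48). Of the skeletal muscle markers, 4 of 6 lay under the filter and Acta1, which heart muscle also expresses, was higher in both comparisons with before AAC. No marker of white fat or of red cells was called, with 2 and 1 tested. Their part in the members' differences was not tested. The 4 atrial markers varied within groups, with summed signals of 4465 to 91264, 5505 to 69370 and 6050 to 68428, and with their score as a covariate 23 members were called at 4 weeks and 30 with Akt on.

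More of the calls at 4 weeks than of those with Akt on were lost when 1 heart was left out. Leaving out any 1 of before-AAC replicates 1, 2 and 3 or of 4-week replicates 1 and 2 left 1 of the 15 members called, Atp5d, and leaving out 4-week replicate 3 left 9. All probe sets called fell from 1199 to between 118 and 375 in those first 5 analyses. Fewer hearts also lower the precision, so the lost calls do not show that 1 heart made them. With Akt on, 11 of the 18 were called without before-AAC replicate 2 and 31 without Akt-on replicate 2. The members' median stayed between −0.35 and −0.25 at 4 weeks and between −0.36 and −0.26 with Akt on when each heart was left out in turn. Several members were read by probe sets that may bind more than 1 transcript, with the suffix s_at or x_at: 5 of the 15 called at 4 weeks and 8 of the 18 called with Akt on.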

How the data were processed

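Per the labels, total RNA of 9 hearts was isolated with the Ultraspec-II reagent, labelled with biotin and hybridised to the Affymetrix 430A and 430B chips (18 arrays). Per the submitters' processing notes the authors made the deposited values with MAS5, and the unit is intensity, a linear signal per probe set; its version and target are not given in the sources used here. The trimmed mean (2% off each end) of the deposited intensities was 500.19 to 500.22 on every 430A array and 122.51 on every 430B array. Gene symbols came from the platform annotation deposited with the arrays: 35041 of 45265 probe sets have 1 symbol, 936 several and 9160 none.

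The arrays of a chip were brought to a common trimmed mean, and log2(signal + 32) was computed. A fold is 2 to the power of a difference on that scale, which understates changes of dim probe sets. Affymetrix controls were dropped, and on each chip the brightest 60% of probe sets by mean signal were tested (27083). Per chip, 3 group means were fitted with limma 3.58.1 in R 4.3.3 (lmFit, eBayes with a trend), two-sided, with Benjamini-Hochberg adjustment over both chips; the procedure was tested on simulated data. The number of arrays, 3 a group, limits the precision.

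Full values are given for up to 4 members of each complex in each comparison (the largest called, then the smallest p), for genes whose probe sets lie on both sides of 0 with a call, and for isoform pairs. The members, lists and tests were chosen with earlier results of these data known. The subunit roles, the brightness limit of 5000, the motifs and the promoters shown were chosen after the values had been seen. The other pathway genes and markers were taken from lists with 1 probe set a gene. The 14 alternatives beside leaving out each heart varied scaling, pseudocount, filter, probe set choice, variance model, groups in the fit, adjustment, averaging of 4-week replicates 1 and 3, and covariates, and added the replicate number as a block.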

Additional observations from a re-analysis of the deposited data

How the results depend on the processing

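The number of members called at 4 weeks against before AAC was 15 in the analysis reported, 3 with quantile scaling, 7 with cyclic loess, 1 without a filter, 2 without a variance trend, 23 with only the 2 groups in the fit, 6 with 4-week replicates 1 and 3 averaged, 23 with the atrial score and 0 with the Gapdh ratio as covariate. With Akt on against before AAC it was 18, and 9 with quantile scaling, 11 with cyclic loess, without a filter or without a trend, 30 with the atrial score and 0 with the Gapdh ratio. Leaving out each heart gave 1 to 19 and 11 to 31. No alternative called a member between Akt on and 4 weeks. The cause of these changes was not tested, except that the unfiltered analysis adjusts over 45137 probe sets. With the replicate number as a block (replicate block) 6 members were called at 4 weeks and 17 with Akt on. All probe sets called went from 1199 to 560 and from 3623 to 3006. Between groups, the deviations of same-numbered hearts from their group means correlated at −0.24 to 0.14. These correlations give no evidence that the numbers pair the samples, and they do not exclude it.

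Direction was followed for the member probe sets chosen by the rule for full values, and no called one of these turned in these alternatives. The other calls described above are not covered. Against before AAC, complex III with Akt on turned to 0.07 (quantile) and 0.06 (loess). Cox5a by its second brightest probe set turned at 4 weeks to 0.04 (quantile), 0.02 (loess) and 0.05 (Gapdh ratio), and with Akt on to 0.03 under both scalings. At 4 weeks Uqcrb turned to 0.03 (quantile). With Akt on, dim probe sets of Uqcrq turned to 0.00 (loess; mean signal 194) and 0.08 (Gapdh ratio; mean signal 145), and the dimmest of Cox5a to −0.12 (Gapdh ratio). The medians between Akt on and 4 weeks turned to 0.03 (loess) for all members, to 0.03 (loess) and 0.01 (1 probe set per gene) for complex IV and 0.01 (loess) for the ATP synthase. Among isoform pairs at 4 weeks, Cox7a1 minus Cox7a2 turned to −0.05 (quantile), Cox8b minus Cox8a to 0.22 (quantile) and 0.08 (loess), and Cox4i2 minus Cox4i1 to 0.05, and to 0.00 with Akt on (both with the higher pseudocount). With each heart left out in turn, the results that turned included the same Cox5a probe set at 4 weeks between −0.18 and 0.03 and with Akt on between −0.31 and 0.00, and the dim probe sets of Uqcrq with Akt on between −0.23 and 0.15 (mean signal 194) and between −0.35 and 0.03 (mean signal 145). Between Akt on and 4 weeks, the median of all members ran from −0.11 to 0.05, complex IV from −0.08 to 0.05, the ATP synthase from −0.14 to 0.02 and Cox4i2 minus Cox4i1 from −0.18 to 0.02. At 4 weeks Cox4i2 minus Cox4i1 ran from −0.12 to 0.09 and Cox8b minus Cox8a from −0.17 to 0.09. Groups of isoform differences without overlap numbered 5 to 7 of 12 over all alternatives.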
